A study of Rattus norvegicus with 6 samples.

Results

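The M1 aminopeptidases are a family of zinc enzymes that remove amino acids from the free end of peptides, and 8 of their genes were followed here in cells cultured from rat amniotic fluid. The 8 genes were Lvrn, Anpep, Enpep, Lnpep, Erap1, Npepps, Rnpep and Trhde, taken by gene name from the 22085 genes of the deposited table. The family was selected on the comparison described below, because Lvrn, which encodes laeverin, had shown some of the smallest unadjusted p-values in the higher direction between these same libraries. The other 7 genes were added as its relatives. The differences between groups are therefore given as a description and carry no test of their own.

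Amniotic fluid was collected at hysterectomy on embryonic day 18.5, either from control rats or from rats made into a model of preeclampsia, a pregnancy disorder with maternal hypertension. How the model was made, the rats' strain, genotype and age and any pooling of fetuses are not given in the sources used here. Cells were grown in serum-containing medium and harvested at passage 4 in both groups, with 3 control and 3 preeclampsia libraries. The labels call the cells mesenchymal stem cells.

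M1 aminopeptidases act on peptide hormones, on peptides made by the proteasome and on peptides inside vesicles. Several of them lie in the chain that turns over angiotensin, the blood pressure peptide: aminopeptidase A, the product of Enpep, turns angiotensin II into angiotensin III, and aminopeptidase N, the product of Anpep, acts on angiotensin III. Lnpep encodes the placental leucine aminopeptidase, known as oxytocinase, which breaks down oxytocin and vasopressin in pregnancy. Laeverin is known in human placenta as a surface enzyme of the extravillous trophoblast, the cells that invade the uterine wall.

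Depth was similar across libraries, at 48402185 to 59193961 counts. Preeclampsia libraries 2 and 3 stood apart from the other 4 on the first principal component, which held 33.3% of the variance. The label of mesenchymal cells was checked on 9 stromal markers, among them Thy1, Vim, Pdgfrb and Cxcl12, whose summed level was 5220 to 5990 FPKM, a level scaled to gene length and library size, in control libraries and 5420 to 7970 in preeclampsia libraries. All 9 were above 3 FPKM in every library. The sum was mostly Col1a1 and Cxcl12, and some of the 9 varied widely between libraries. Over the 6 libraries Eng ranged from 3.72 to 44.47 FPKM, Nt5e from 6.02 to 104.1 and Cd44 from 94.97 to 508.87. Another of the 9, Pdgfra, was at 97.7 to 116.11 FPKM in the controls and at 225.46 to 410.59 FPKM in the preeclampsia libraries, without overlap. The labels do not say whether replicate libraries came from separate animals, so p-values measure only the spread between these libraries, which may be technical.

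Of the 8 genes, 7 passed the filter on low counts, and only Trhde did not. Ordered by deposited FPKM in the control libraries, the genes ran from Lnpep through Anpep, Npepps, Erap1, Rnpep and Enpep to Lvrn and Trhde, and no neighbours in that order overlapped. In the preeclampsia libraries Anpep came first and Lvrn moved up between Npepps and Erap1. There, Anpep overlapped Lnpep, and Lvrn overlapped both Npepps and Erap1. This order depends on the gene length behind the FPKM, which the counts and FPKM together imply. It was 748.2 bases for Lnpep, 1108 for Lvrn and 1612 for Anpep, but 5933 for Npepps and 6086 for Erap1. The first 3 are shorter than the coding sequence of a full-length M1 enzyme, so FPKM places those genes high against the others. The implied length differed between libraries by at most 0.036 on the log2 scale over the 6743 genes with FPKM over 5 in all libraries. Comparisons of such a gene between libraries therefore do not depend on it. Lvrn, Enpep and Trhde fell below that level in some libraries and were not part of this check. The edgeR fold changes were fitted on counts, not on FPKM.

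**Figure D1:**
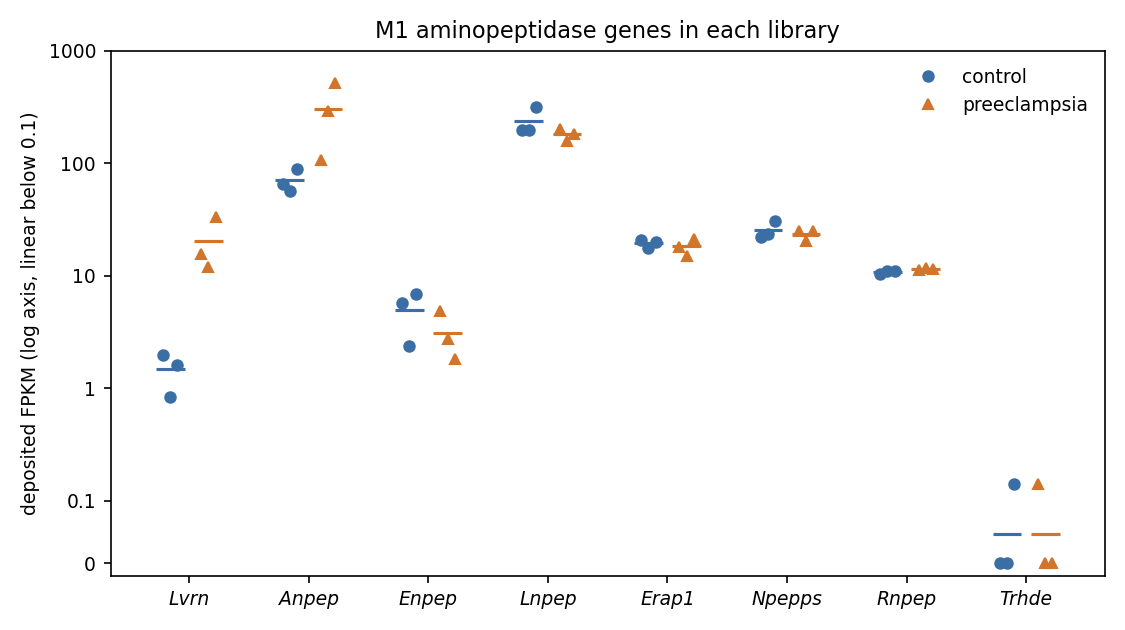
Deposited FPKM of the 8 genes in each library, on a log axis that is linear below 0.1, with controls as circles, preeclampsia as triangles and the group mean as a line. Lvrn and Anpep lie higher in all 3 preeclampsia libraries than in any control, while Erap1, Npepps and Lnpep overlap.

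Lvrn was low in control cells and higher in every preeclampsia library. Its level was 1.96, 0.84 and 1.62 FPKM for controls 1 to 3, against 15.6, 12.04 and 33.0 FPKM for preeclampsia 1 to 3. The groups did not overlap, the lowest preeclampsia value being 6.14 times the highest control value, and library 3 was the highest of its group. The counts behind these values were 108, 50 and 94 in the controls and 892, 787 and 1757 in the preeclampsia libraries. Group means were 1.473 ± 0.574 and 20.2 ± 11.2 FPKM (SD, n = 3 each), a fold change of 13.5 and a log2 fold change of 3.76 (SE 0.53). By fold change Lvrn ranked as number 31 from the top among 15776 genes tested. In such bulk libraries, more cells that express a gene and more RNA per cell cannot be told apart. Without preeclampsia libraries 2 and 3, an alternative added after seeing the data, the log2 fold change of Lvrn was 3.33, so the difference was also present in preeclampsia library 1 alone.

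In the coordinates of the table, Lvrn spans 39606047 to 39675247 on the plus strand of chromosome 18, with 11 transcripts listed. Its neighbours were looked for only among named genes that passed the filter on low counts. The nearest of these before it is Ap3s1, which encodes a subunit of a vesicle coat adaptor. Ap3s1 had a log2 fold change of -0.02 (SE 0.25). The nearest of these genes after Lvrn is Commd10, with 0.07 (SE 0.17). Next to these lie the autophagy gene Atg12, at -0.03 (SE 0.19), and the semaphorin gene Sema6a, at 0.65 (SE 0.47), all 4 named for their position only. The fold changes of these 4 genes were all smaller than that of Lvrn. Since Lvrn was picked for its difference, this would hold for most genes, and nothing is read from it.

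Anpep, whose product is also the surface antigen CD13 of stromal and myeloid cells, was also higher in the preeclampsia libraries, unevenly. Its level was 65.65, 56.95 and 88.1 FPKM for controls 1 to 3, against 107.1, 290.68 and 515.69 FPKM for preeclampsia 1 to 3. The groups did not overlap, but preeclampsia library 1 lay only 1.22 times above the highest control, and the preeclampsia group spanned 4.82 times from lowest to highest. Group means were 70.2 ± 16.1 and 305 ± 205 FPKM (SD, n = 3 each), with a fold change of 4.45 and a log2 fold change of 2.15 (SE 0.56). The size of this difference rested on preeclampsia libraries 2 and 3: without both, the log2 fold change was 0.58 (SE 0.27). Leaving out preeclampsia library 1 gave 2.56, and leaving out preeclampsia library 3 gave 1.55. Anpep spans 133767332 to 133810137 on chromosome 1. Its nearest neighbour among named genes that passed the filter, Ap3s2, lies 8688 bases beyond it and had a log2 fold change of 0.16 (SE 0.15).

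Enpep, the enzyme that acts on angiotensin II, did not follow Anpep. It stood at 5.67, 2.37 and 6.87 FPKM in the control libraries and at 4.83, 2.71 and 1.83 FPKM in the preeclampsia libraries. The groups overlapped, control library 2 lying below preeclampsia libraries 1 and 2. The log2 fold change was -0.66 (SE 0.49). It was -0.08 without preeclampsia libraries 2 and 3 and -1.08 without preeclampsia library 1.

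Lnpep, the oxytocinase gene, stood at 196.23, 196.39 and 318.23 FPKM in the control libraries and at 203.3, 157.96 and 181.3 FPKM in the preeclampsia libraries. Control library 3 was far above the other 5 libraries, which lay close together, and the groups overlapped. The log2 fold change was -0.37 (SE 0.20), and -0.12 without control library 3. Npepps, which encodes the puromycin-sensitive aminopeptidase of the cytosol, was likewise highest in control library 3. It stood at 21.98, 23.51 and 30.79 FPKM in the controls and at 24.85, 20.41 and 24.87 FPKM in the preeclampsia libraries. Its log2 fold change was -0.10 (SE 0.15), and 0.04 without control library 3.

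Erap1, which trims peptides in the endoplasmic reticulum for presentation on class I molecules, was at 20.65, 17.6 and 19.95 FPKM in the controls. In the preeclampsia libraries it was at 18.16, 15.1 and 21.42 FPKM, so the preeclampsia libraries held both the lowest and the highest value. The log2 fold change was -0.07 (SE 0.16). Leaving out control library 1 or preeclampsia library 2 gave 0.01 or 0.03, so no direction can be read for Erap1.

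Rnpep encodes aminopeptidase B, a secreted and cytosolic enzyme that removes arginine and lysine. It was the steadiest member, at 10.31, 11.03 and 10.95 FPKM in the controls and at 11.23, 11.73 and 11.41 FPKM in the preeclampsia libraries. The groups did not overlap, yet the means differed by little, at 10.8 ± 0.395 and 11.5 ± 0.253 FPKM (SD, n = 3 each), with a log2 fold change of 0.11 (SE 0.10). Only 1.05% of all tested genes had as small a standard error.

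Trhde, the membrane enzyme that inactivates thyrotropin-releasing hormone, was at the edge of detection. It was listed at 0.14 FPKM, a count of 18, in control library 3 and preeclampsia library 1, and at 0 in the other 4 libraries. The region of its start overlaps a gene on the opposite strand that has only a locus identifier. No difference between groups was detectable at this depth.

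By edgeR's quasi-likelihood test over all genes, 0 of the 7 tested members were called at an adjusted p under 0.05, where 0% of all tested genes were called. At an unadjusted p under 0.05 there were 2 members, Lvrn and Anpep, among 1450 genes. DESeq2 called the same 2 members, both higher, where it called 1.71% of genes in all and 0.725% in the higher direction. The 3 control libraries and the 3 preeclampsia libraries did not overlap in CPM for 3 of 7 members, Lvrn, Anpep and Rnpep, all higher. Across all tested genes this held for 14.8%, and for 6.41% in the higher direction. Because the family was picked with this comparison known, nothing is read from these counts. The median log2 fold change over the 7 members was -0.07, with 3 higher and 4 lower, against 0.01 over all tested genes.

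**Figure D2:**
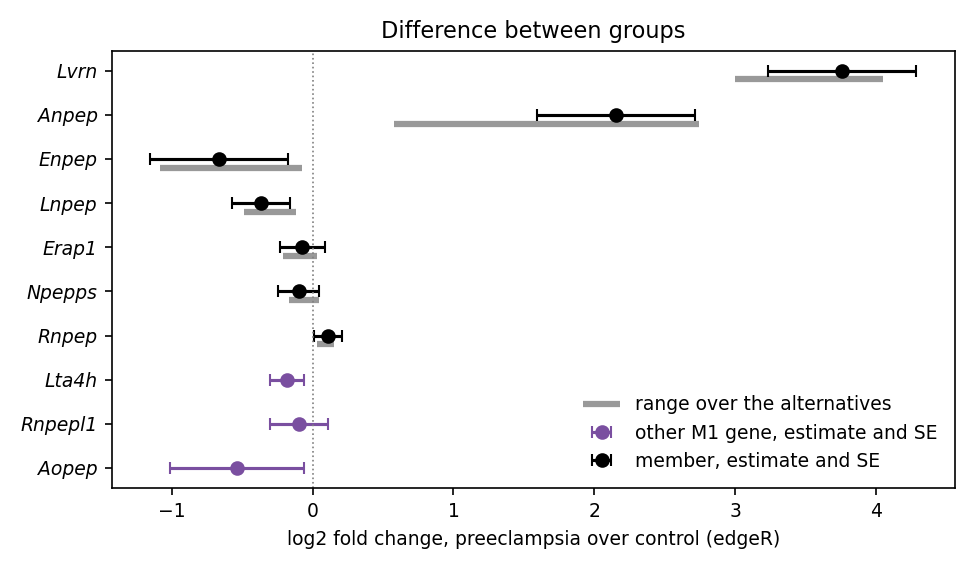
Log2 fold change of preeclampsia over control for 7 members and 3 other M1 genes, each with its standard error, and in grey the range over the alternative analyses for the members. Lvrn at 3.76 and Anpep at 2.15 stand apart from the others, which lie between -0.66 and 0.11.

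The estimates of 3 other M1 genes were all below 0. Lta4h, which makes leukotriene B4, was at 49.9 ± 7.05 FPKM in the controls against 43.4 ± 3.38 FPKM (log2 fold change -0.18, SE 0.12). Rnpepl1, a relative of Rnpep, was at 7.85 ± 0.397 and 7.21 ± 1.67 FPKM (-0.10, SE 0.20). Aopep, encoding aminopeptidase O, was at 12.55 ± 6.72 and 8.59 ± 1.58 FPKM (-0.54, SE 0.47), SD over 3 libraries throughout. In all 3 the groups overlapped.

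Summed over the 8 members, the family took 628 ± 117 CPM (counts scaled to library size) in the control libraries and 962 ± 344 in the preeclampsia libraries (SD, n = 3 each). Anpep made up 17.9% ± 0.942 of that sum in the controls and 47.2% ± 19.0 in the preeclampsia libraries. The sum without Anpep and Lvrn was 513 ± 90.8 and 448 ± 46.8 CPM. Without these 2 genes the sum was thus no higher in the preeclampsia libraries. Lvrn made up 2.26% ± 0.652 there and 0.265% ± 0.102 in the controls.

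**Figure D3:**
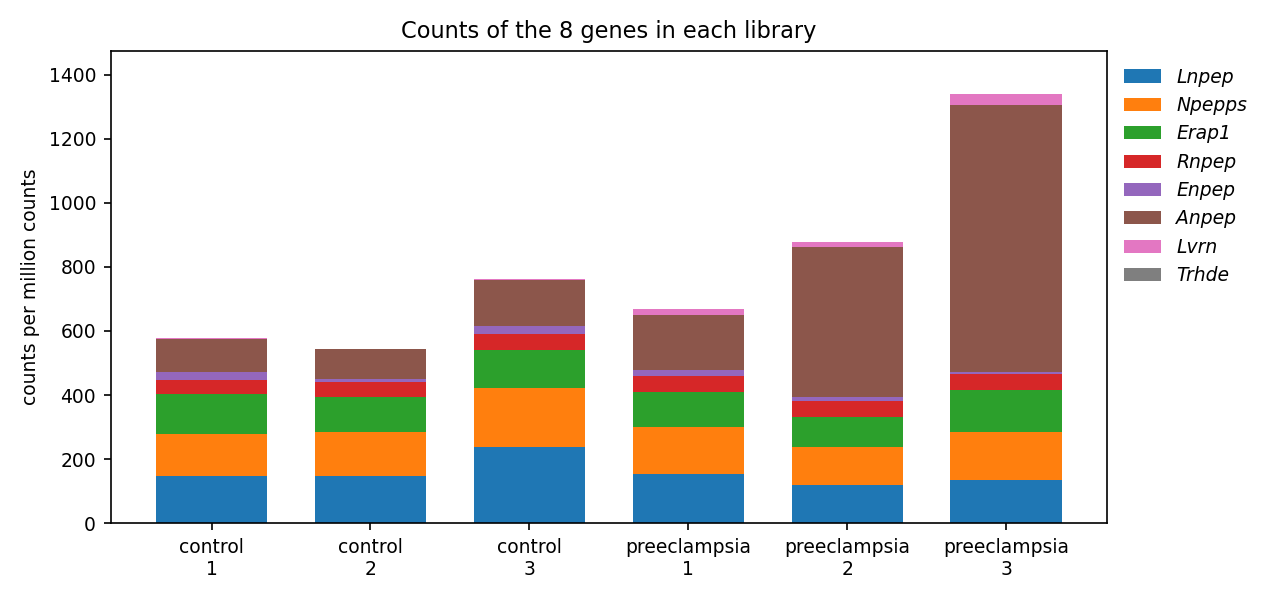
Stacked CPM of the 8 genes in each of the 6 libraries. The Anpep segment widens in preeclampsia libraries 2 and 3, where Anpep stands at 470 and 832 CPM, while the members other than Anpep and Lvrn sum to 448 ± 46.8 CPM over the preeclampsia libraries.

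The 5 genes whose log2 CPM followed Lvrn most closely over the 6 libraries were Apaf1, Zfp521, Ccl11, Ribc1 and Ecm2, with Pearson correlations between 0.978 and 0.987. They were the highest of 13450 genes compared, and 35 genes lay above a correlation of 0.95. Among them only Ccl11, which encodes the chemokine eotaxin, had a fold change as large as that of Lvrn. It was at 0.12, 0.08 and 0.07 FPKM in the controls and at 0.88, 0.91 and 2.9 FPKM in the preeclampsia libraries (log2 fold change 4.09, SE 0.68). Ecm2, a matrix protein gene, lay under 0.3 FPKM throughout. Apaf1, the core gene of the apoptosome, was at 13.0, 13.51 and 14.26 FPKM and at 17.78, 16.48 and 19.0 FPKM (0.41, SE 0.10). With 6 libraries in 2 groups, a high correlation includes the difference between the groups, and it is given as a description. Between members, the highest correlations were 0.895 for Lnpep with Npepps, 0.866 for Anpep with Lvrn and 0.845 for Anpep with Rnpep. Other pairs were negative, down to -0.724 for Lnpep with Rnpep, and Anpep with Enpep was at -0.595.

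Markers of other cell types were measured in the same libraries, and those of macrophages moved with Anpep in part. The 10 macrophage and blood markers summed to 135, 108 and 25.3 FPKM in control libraries 1 to 3 and to 26.4, 342 and 171 FPKM in preeclampsia libraries 1 to 3. All 10 had a higher mean level in the preeclampsia group (median log2 fold change 0.96), and none was called by edgeR. Ptprc, which defines blood cells, ranged from 0.09 to 1.49 FPKM. The 2 libraries with the highest Anpep had the highest marker sums, but preeclampsia library 3 had more Anpep and fewer macrophage transcripts than library 2. Control library 3, with the lowest sum, had the highest Anpep of its group. Without control library 3 and preeclampsia library 1, the pair with low sums, Anpep had a log2 fold change of 2.74 and Lvrn 3.98. This fit was added after seeing the data. It does not balance the macrophage markers, whose sums in the libraries kept were 135 and 108 FPKM in controls and 342 and 171 FPKM in preeclampsia. Nothing about macrophages is read from it. Lvrn was at 15.6 FPKM in preeclampsia library 1, where the macrophage markers were as low as in control library 3. The part of macrophages in the Anpep difference was not tested.

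Trophoblast markers were of interest because of laeverin's place in the human placenta. Of 15 listed, 10 were in the table, and 6 of these lay below 1 FPKM in every library. The lineage factor Cdx2 was at 1.1, 1.05 and 0.18 FPKM in the controls and at 0.06, 4.6 and 9.69 FPKM in the preeclampsia libraries, so it was high in preeclampsia libraries 2 and 3 and lowest in preeclampsia library 1. Prl2c1, a prolactin family gene, was at 0, 0.28 and 5.55 FPKM in the controls and at 1.48, 8.08 and 4.74 FPKM in the preeclampsia libraries. Hand1 was highest in control library 1, at 5.45 FPKM, and reached at most 0.17 FPKM in the preeclampsia group. The other lineage factors stayed low, Elf5 reaching 0.1 FPKM, Ascl2 0.03 and Tfap2c 0.82. Tfap2c was at 0.08, 0.38 and 0.07 FPKM in the controls and at 0.06, 0.24 and 0.82 FPKM in the preeclampsia libraries. The summed level of the 10 markers was 27.9, 25.5 and 160 FPKM in control libraries 1 to 3 and 20.3, 39.4 and 43.1 FPKM in the preeclampsia libraries. The high value of control library 3 was mostly Peg10, an imprinted gene also expressed outside the placenta, at 153.68 FPKM. The part of trophoblast cells in the Lvrn difference was not tested.

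Among the 8 mesothelium markers, Msln was at 1.06, 2.03 and 1.76 FPKM in the controls and at 17.02, 11.84 and 20.92 FPKM in the preeclampsia libraries, and like Lvrn it did not overlap. The other mesothelial genes did not share this pattern, since only 2 of 7 tested markers had a higher mean (median log2 fold change -0.27). The list summed to 5.96, 17.2 and 11.9 FPKM in the controls and to 19.9, 17.9 and 32.3 FPKM in the preeclampsia libraries. Of 10 epithelial markers 8 were in the table, with Epcam and Cdh1 at or below 0.1 FPKM, and their sum ranged from 17.7 to 89.5 FPKM in controls and from 14.1 to 81.2 in preeclampsia libraries. The epithelial median over 3 tested genes was -3.9, with 1 of 3 higher. Pericyte and smooth muscle markers summed to 1360, 301 and 633 FPKM in the controls and to 366, 247 and 218 FPKM in the preeclampsia libraries, mostly Acta2, with 0 of 5 higher and a median of -1.5. Kidney proximal tubule markers, checked because aminopeptidases A and N are enzymes of the kidney brush border, summed to at most 2.78 FPKM, with 1 of 4 higher and a median of -0.42. Endothelial markers summed to at most 4.03 FPKM, with 3 of 4 higher and a median of 1.0. In the stromal list the mean was higher for 6 of 9 (median 0.15), in the trophoblast list for 5 of 7 (median 0.16). None of the genes in these lists was called by edgeR, and their part in the differences was not tested.

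**Figure D4:**
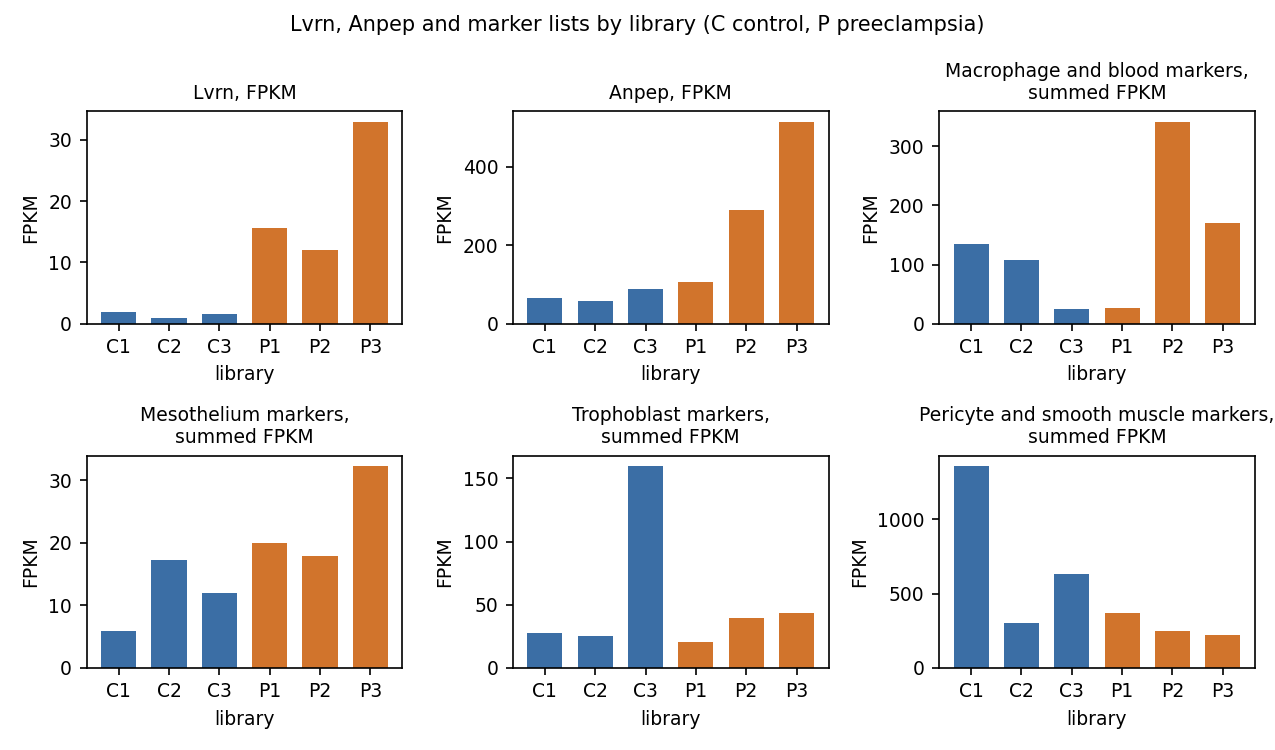
FPKM of Lvrn and Anpep and summed FPKM of 4 marker lists in control libraries C1 to C3 and preeclampsia libraries P1 to P3. Lvrn is high in all 3 preeclampsia libraries, while the macrophage sum is low in P1 at 26.4 and in C3 at 25.3 FPKM.

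Genes around the members' known roles were examined in 6 lists. In none of them was a gene called by edgeR. For the angiotensin system, 2 of 6 tested genes were higher and 4 lower, with a median log2 fold change of -0.08. Agtrap, a receptor-associated protein gene, was at 25.5 ± 6.22 FPKM in the controls against 22.6 ± 3.92 FPKM (SD, n = 3 each, as for the values that follow), and Atp6ap2, which encodes a membrane protein tied to the proton pump, at 10.1 ± 0.537 and 8.83 ± 1.60 FPKM. Among receptors and ligands for oxytocin, vasopressin, tachykinins, kisspeptin and thyrotropin-releasing hormone, only 4 of 11 genes in the table passed the filter, 1 higher and 3 lower (median -0.54). The vasopressin receptor gene Avpr1a was the abundant one, at 60.05 ± 20.8 and 50.5 ± 21.9 FPKM. Trh was at 0.243 ± 0.182 and 0.13 ± 0.05 FPKM, and Tacr3 had the largest estimate, -0.94 (SE 0.88). Trh, whose peptide Trhde inactivates, was thus barely detected, as was Trhde itself.

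Around Erap1, 14 of 16 genes of class I antigen processing were higher and 2 lower, with a median of 0.26, where 8151 of the 15776 genes tested were higher and the median was 0.01. The groups did not overlap for 18.8% of the list, all of them higher, against 14.8% of all tested genes, or 6.41% in the higher direction. The list was chosen with earlier results of these data known, so nothing is read from these shares. The chaperone genes Calr and Pdia3 were at 1134 ± 290 and 1291 ± 129 FPKM and at 380.1 ± 55.0 and 391.7 ± 46.3 FPKM. The class I gene RT1-A2 had the largest estimate, 0.76 (SE 0.38). It belongs to a family of near-identical copies, so its counts are uncertain. DESeq2, which called 1.71% of all genes, called 1 of the 16 in the list, Psme1, a proteasome activator subunit, at 17.85 and 27.23 FPKM (log2 fold change 0.63, SE 0.14, by edgeR), named here because it was called. Of the 9 genes tied to the vesicles that store Lnpep with the glucose transporter GLUT4, 4 were higher and 5 lower (median -0.02). Tnks was at 117 ± 5.46 and 114 ± 15.95 FPKM and Lrp1 at 93.3 ± 16.9 and 137 ± 33.6 FPKM. Slc2a4, which encodes GLUT4 itself, was at 0.107 ± 0.0416 and 0.203 ± 0.127 FPKM, so transcripts of this partner of Lnpep were near the limit of detection.

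Peptidases outside the M1 family were split between higher and lower. Of the other aminopeptidases and dipeptidyl peptidases 10 of 19 were higher and 9 lower, with a median of 0.04. Lap3, a cytosolic leucine aminopeptidase gene, was at 165 ± 8.41 and 169 ± 34.9 FPKM and Metap2 at 54.3 ± 3.74 and 56.1 ± 9.12 FPKM. Dpp4 had the largest estimate, 2.22 (SE 1.52), at levels from 0 to 0.91 FPKM. Of the endopeptidases and carboxypeptidases that process peptide hormones 10 of 14 were higher and 4 lower, with a median of 0.05. Cpe was at 459 ± 238 and 227 ± 92.2 FPKM (-1.02, SE 0.50) and Ctsa at 319 ± 21.8 and 321 ± 68.0 FPKM. Cpz had the largest estimate, 2.26 (SE 1.19), with its highest level, 2.73 FPKM, in preeclampsia library 3.

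The promoter windows of the members differed in base composition and in their place in the gene. RefSeq promoter windows on the GRCr8 build were matched for 7 of the 8 genes, all but Erap1, and the 250 bases before each start were read. The windows of Enpep, Lnpep, Npepps and Trhde lay at the gene's outermost start and that of Rnpep 1810 bases inside it. That of Anpep lay 24346 bases inside, and those of Lvrn 38395 to 67192 bases inside. The CpG values therefore compare starts at unlike positions. CpG content is set here as observed over expected, the number of CG dinucleotides relative to that expected from the C and G content of the window. It was 0.96 for Npepps, 0.96 for Trhde, 0.91 for Lnpep and 0.74 for Rnpep, but 0.55 for Enpep, 0.36 for Anpep and 0.22 to 0.31 for the 4 starts of Lvrn, of which 3 overlap. The median over 33465 windows was 0.38. The 3 members with the lowest values, Lvrn, Anpep and Enpep, had the largest log2 fold changes in either direction, among the 6 genes with both values. This is a description of genes picked on that comparison, and a link between CpG content and fold change was not tested. The place of Enpep is uncertain, since its log2 fold change was -0.66 (SE 0.49). Without preeclampsia libraries 2 and 3 it was -0.08, against -0.25 for Lnpep. The Enpep ratio of 0.55 also lay above the median over all windows. Trhde, with a CpG-rich window, was nearly silent.

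The windows of these 3 genes and of the steady Rnpep are shown to let the difference be seen, 5′ to 3′ on the gene's strand with each CG in capitals.
Lvrn: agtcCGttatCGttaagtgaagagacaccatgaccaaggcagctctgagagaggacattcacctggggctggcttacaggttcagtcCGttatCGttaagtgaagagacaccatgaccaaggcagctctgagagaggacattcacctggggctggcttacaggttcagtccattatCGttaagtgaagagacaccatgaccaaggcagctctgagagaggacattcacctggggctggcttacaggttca
Anpep: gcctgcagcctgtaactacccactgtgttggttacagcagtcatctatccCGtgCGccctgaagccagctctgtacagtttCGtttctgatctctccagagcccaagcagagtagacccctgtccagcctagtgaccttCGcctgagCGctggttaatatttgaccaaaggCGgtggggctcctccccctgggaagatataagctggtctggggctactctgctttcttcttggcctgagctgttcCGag
Enpep: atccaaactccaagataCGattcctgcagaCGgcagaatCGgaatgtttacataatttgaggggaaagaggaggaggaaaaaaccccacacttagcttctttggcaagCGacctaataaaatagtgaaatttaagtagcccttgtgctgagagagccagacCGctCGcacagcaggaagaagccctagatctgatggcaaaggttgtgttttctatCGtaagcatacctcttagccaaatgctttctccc
Rnpep: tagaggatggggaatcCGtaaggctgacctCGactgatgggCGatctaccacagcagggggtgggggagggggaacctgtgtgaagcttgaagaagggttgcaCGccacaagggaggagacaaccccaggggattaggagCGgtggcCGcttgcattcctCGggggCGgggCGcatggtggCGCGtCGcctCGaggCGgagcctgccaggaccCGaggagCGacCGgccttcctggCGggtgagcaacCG
They lie at chr18:41790933-41791182 (plus strand), chr1:143195102-143195351, chr2:220526219-220526468 and chr13:49269631-49269880 (minus strand) of GRCr8. The Lvrn window holds 5 CG, those of Anpep and Enpep 7 each and that of Rnpep 19.

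The Lvrn window shown is a tandem repeat: shifted by 83 bases, 99.4% of its bases match themselves. The Lvrn windows that overlap it hold the same repeat, at 97.0% and 96.4%. The most internal Lvrn window, which lies apart, is no such repeat, with 38.6% at its best period. A repeat with a period of 20 to under 150 bases and at least 90% matching bases was found in 0.117% of all windows. In the RefSeq annotation the start of the Lvrn window shown lies 38395 bases inside the gene's outermost start. That of Anpep lies 24346 bases inside its own, so other starts exist for both genes. The table does not say which starts were used.

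Short motifs were searched on both strands of these windows. The Anpep window held the TATA box core TATAA, found in 24.0% of all windows, and GTTAAT, a part of the site of the epithelial factor HNF1, found in 6.45%. Enpep and Rnpep each held GGAATG, the core of the TEAD site, found in 12.1%. The GC box GGGCGG, found in 30.5%, was in the windows of Lnpep, Npepps, Rnpep and Trhde. CCAAT, found in 34.0% of windows, and the AP-1 site TGANTCA, found in 6.34%, were in none of the members' windows, and of the 4 Lvrn windows only the most internal held a motif searched, TATAA. A match describes the letters only.

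**Figure D5:**
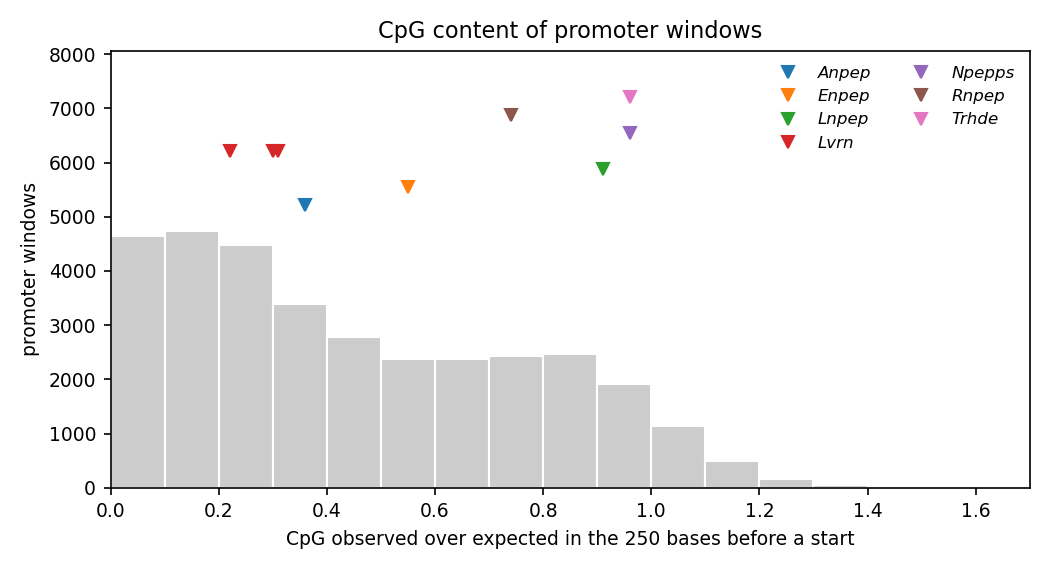
Histogram of CpG observed over expected for 33465 promoter windows of 250 bases, with each member's windows marked by a triangle whose height has no meaning. Lvrn at 0.22 to 0.31 and Anpep at 0.36 lie left of Rnpep at 0.74 and of Lnpep, Npepps and Trhde at 0.91 to 0.96. The windows of Lvrn and Anpep lie far inside the gene, those of Lnpep, Npepps and Trhde at its outermost start.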

How the data were processed

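The members and gene lists were chosen with earlier results of these data known. Per the file headers, the deposited table gives for each gene a count and an FPKM in every library. Tools named in the submitters' processing notes are StringTie 2.1.6, HISAT2 2.2.1, FastQC and cutadapt 1.9. The labels' protocols describe oligo(dT) enrichment and adapters with molecular identifiers. Coordinates are those of the table. Its genome build, the strand setting and any collapsing of identifiers are not given in the sources used here. Among counts from 1 to 15, multiples of 4 made up 35.1% to 38.0%, where an even spread would give 20%, so low counts may not be whole reads.

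Libraries were grouped by title, 3 per group, and none were duplicates (for the closest pair, chi-square over its degrees of freedom was 140). The test was edgeR's quasi-likelihood test (edgeR 4.0.16, R 4.3.3) on counts after filterByExpr and TMM scaling. The model held group alone, and p-values over the 15776 genes were adjusted by Benjamini-Hochberg. Fold changes are preeclampsia over control, and a standard error is the log2 fold change over the root of F. The named genes were the members, other M1 genes, the 5 genes most correlated with Lvrn (log2 CPM, prior count 2), and of each of 6 related lists the 2 with the highest FPKM and the 1 with the largest fold change, of which 1 gene is not reported here. Alternatives were DESeq2 1.42.0, limma 3.58.1 on log2(FPKM + 1) or log2(FPKM + 0.1), other filters and scalings, the replicate number as a block, and libraries left out. Scripts were tested on simulated data. The common biological coefficient of variation was 0.418, so spread between libraries rather than depth limits precision. Erap2 and Tma108, also listed, are not analysed here.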

Additional observations from a re-analysis of the deposited data

How the results depend on the processing

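The number of genes called by edgeR was 0, with 1450 genes at an unadjusted p under 0.05. It was 302 with DESeq2, which called 2 members (Lvrn, adjusted p = 5.57e-11, and Anpep, adjusted p = 0.00535), and 1 with limma on log2(FPKM + 1) without a filter. Leaving out each library gave between 0 and 2 genes, and leaving out both control library 3 and preeclampsia library 1, an alternative added after seeing the data, gave 3. The cause was not tested. No member was called in any alternative other than DESeq2. Over 16 alternatives the log2 fold change ranged from 3.0 to 4.05 for Lvrn, from 0.58 to 2.74 for Anpep, from -1.08 to -0.08 for Enpep, from -0.48 to -0.12 for Lnpep and from 0.03 to 0.15 for Rnpep, each keeping its direction. The members nearest 0 reversed. Erap1, down to -0.212 elsewhere, was 0.00841 without control replicate 1 and 0.0288 without preeclampsia replicate 2. Npepps, down to -0.165 elsewhere, was 0.0441 without control replicate 3 and 0.0181 without control library 3 and preeclampsia library 1. The lowest value of Anpep came without preeclampsia libraries 2 and 3, a fit in which the lone preeclampsia library is assumed to vary like the controls. The median over the members, -0.074, ranged from -0.15 to 0.044 and was above 0 in 4 alternatives.

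Deviations from the group mean correlated little between same-numbered libraries of the 2 groups, at 0.0484, 0.041 and 0.0104. Between libraries with different numbers the correlations ran from -0.0795 to 0.035. With 3 libraries per group, these values cannot decide whether the replicate numbers pair the libraries. The fit with the replicate block called 0 genes and 0 members. It gave log2 fold changes of 3.71 (SE 0.38) for Lvrn and 1.91 (SE 0.48) for Anpep.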
